A study of Mus musculus with 15 samples.

Results

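The NRF2 antioxidant response was followed through 10 genes, namely the transcription factor gene Nfe2l2, its inhibitor Keap1 and the target or associated genes Hmox1, Nqo1, Gclc, Gclm, Txnrd1, Srxn1, Slc7a11 and Gstt1. They were looked up by name in a table of 56980 genes, and all 10 were found in it. The list was chosen with earlier results of these data known. NRF2, the protein encoded by Nfe2l2, is a basic leucine zipper factor that KEAP1 holds in the cytoplasm and hands to a CUL3 ubiquitin ligase for destruction. Oxidants and electrophiles modify cysteines of KEAP1, after which NRF2 accumulates, pairs with small MAF proteins and binds antioxidant response elements near genes for glutathione synthesis, thioredoxin recycling, NADPH supply, haem breakdown and detoxification. Quercetin, a plant flavonoid, is known as an activator of this response, and dystrophic muscle is known for oxidative stress. NRF2 itself is regulated mostly through protein stability, which RNA does not show.

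The libraries came from DBA/2J-mdx mice, which carry a dystrophin mutation on a background with severe muscle disease, and mice of all 4 groups had this genotype. Tibialis anterior (TA) muscles were collected at 5 months of age from mice that had received dasatinib (a tyrosine kinase inhibitor) plus quercetin (D + Q; 4 libraries, all labelled male) or vehicle (4 libraries, 2 male and 2 female) for 2 months. Hearts were collected at 16 months after 4 months of D + Q (3 libraries, labelled 2 female and 1 male) or vehicle (4 libraries, 2 male and 2 female). Dosing was 2 times per week in every group, and treatment began at 3 months of age for TA and at 12 months for heart. Tissue, age and length of treatment therefore changed together between TA and heart and cannot be told apart. The 2 drugs were given together, so no value belongs to quercetin alone.

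Expression was measured by bulk RNA-seq and is given as TPM, a length-normalised abundance scaled to a total of 1000000 in each of the 15 libraries. It keeps no read depth, so the number of reads behind each value cannot be given. A library held 21830 to 25378 genes above 0. Skeletal fibre markers (Acta1, Ckm and Myh4) summed to 21718 to 31261 TPM in TA, and cardiomyocyte markers (Myh6, Tnni3 and Actc1) summed to 9556 to 12932 TPM in heart, as the labelled tissues require. Several features of the heart libraries ran with treatment. Atrial markers (Myl7, Myl4 and Sln) summed to 174 to 1305 TPM with vehicle and 5.55 to 9.34 TPM with D + Q, red cell markers (Hba-a1, Hbb-bs and Alas2) to 285 to 1067 TPM and 23.7 to 107 TPM, and the clock gene Bmal1 lay at 1.35 to 3.15 TPM and 8.55 to 10.2 TPM. Fibroblast markers (Pdgfra, Dcn and Col1a1) summed to 411 to 608 TPM with vehicle and 337 to 394 TPM with D + Q, and the cardiomyocyte markers to 9556 to 10797 TPM and 11960 to 12932 TPM. Most of the fibroblast sum was Dcn, which like Col1a1 was lower with D + Q without overlap. Pdgfra overlapped, at 15.3 to 20.3 TPM with vehicle and 13.4 to 19.6 TPM with D + Q. Heart D + Q replicate 3 was labelled male but held Xist at 47.2 TPM and at most 0.0279 TPM of any of 4 Y-linked genes. In bulk tissue, fewer cells of a type and less RNA per cell cannot be told apart.

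Group differences were assessed by limma on log2(TPM + 0.5), and p-values were adjusted over all genes tested by the Benjamini-Hochberg method. On this scale the change of a weakly expressed gene is understated. A gene was called when its adjusted p-value was under 0.05 and its absolute log2 fold change above 0.5. TPM of single libraries are listed in order of replicate number.

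The antioxidant response element can be read in the genome beside several of these genes. Its core, TGACNNNGC, was searched on both strands of GRCm39, and N stands for any base. The Hmox1 stretch is printed because it held the densest matches of any member, and the Gclm and Txnrd1 stretches because they held the matches nearest upstream of a start. Hmox1 (chromosome 8, 75820241 to 75827217, plus strand) had 3 matches inside chr8:75810571-75810648, which begins 9670 bases before its start site. Gclm (chromosome 3, 122039126 to 122065061, plus strand) had 1 match in chr3:122039042-122039110, and Txnrd1 (chromosome 10, 82669785 to 82733546, plus strand, canonical start at 82695013) had 1 in chr10:82694918-82694986. The Hmox1 stretch is intergenic. The Gclm stretch ends 16 bases before the start and overlaps no annotated exon, and the Txnrd1 stretch is intronic to longer Txnrd1 transcripts and overlaps an exon of the antisense gene Gm38560. All 3 are written 5′ to 3′ on the plus strand, with the core as its reverse complement in capitals.
Hmox1: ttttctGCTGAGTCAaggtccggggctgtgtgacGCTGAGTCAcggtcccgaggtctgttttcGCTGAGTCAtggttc
Gclm: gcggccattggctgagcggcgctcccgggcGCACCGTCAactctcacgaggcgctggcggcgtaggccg
Txnrd1: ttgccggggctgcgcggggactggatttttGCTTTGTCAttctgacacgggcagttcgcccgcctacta

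The 3 Hmox1 matches read identically and begin 9664, 9636 and 9607 bases upstream. Each contains TGACTCA on the opposite strand, which is also the letters of an AP-1 site, so the sequence does not separate the 2 motifs. A stretch of 300 bases with at least 3 matches within 12000 bases upstream was found for 1 of the 10 members and for 2.38% of 21619 protein-coding genes. From 250 bases before to 50 bases after the start, 3 members had a match (Gclm, Txnrd1 and Srxn1, the last 29 bases into the transcript) against 12.5% of protein-coding genes. These matches describe letters, not binding. The absence of a match for the other members says only that those letters were not in the window.

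Across the 4 groups the members fell into distinct patterns. Txnrd1, Srxn1, Keap1 and Slc7a11 were higher in every TA library than in any heart library, Nqo1 was higher in every heart library than in any TA library, and Nfe2l2, Hmox1, Gclc and Gclm overlapped between the tissues. Gstt1 had the order heart vehicle, heart D + Q, TA vehicle, TA D + Q, and heart vehicle was the only group separated from its neighbour in that order. No member was called between D + Q and vehicle in either tissue.

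**Figure D1:**
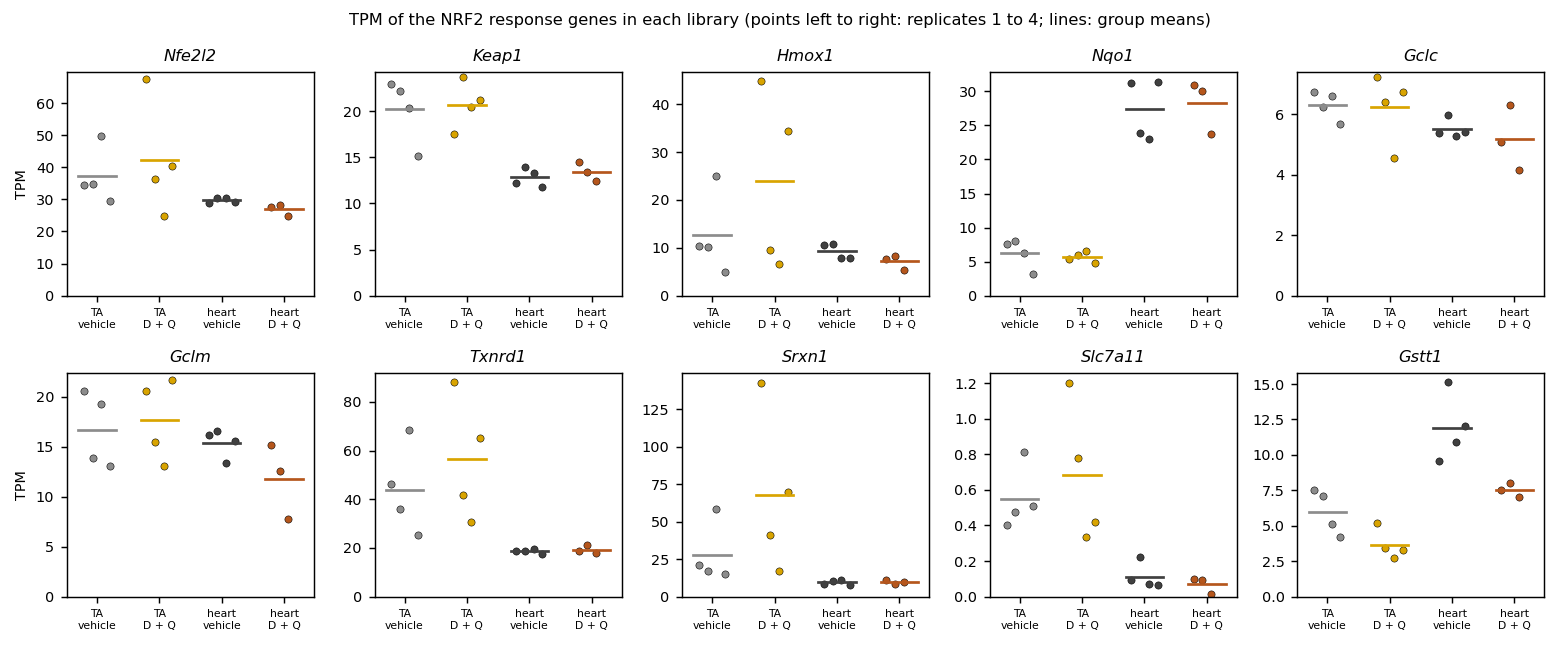
TPM (linear axis from 0) of the 10 genes in each of the 15 libraries, with points for libraries in the order of their replicate numbers and lines for group means. Hmox1 and Srxn1 spread widely in both TA groups, Nqo1 lies at 23.1 to 31.5 TPM in heart and 3.21 to 8.01 TPM in TA, and Gstt1 is at 7.04 to 8.02 TPM in D + Q-treated hearts and 9.58 to 15.2 TPM in vehicle hearts.

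The first question was whether D + Q treatment went with a higher antioxidant response in TA muscle. None of the 10 members was called higher or lower, and 0% of the 16298 genes tested were called in either direction (limma, adjusted p-values of all members 0.999). The members' log2 fold changes ran from -0.73 for Gstt1 to 0.60 for Srxn1, with a median of -0.02 beside -0.07 for all genes tested. Before adjustment, 1 member had p under 0.05 with the minimum fold change in the higher direction (Srxn1) and 1 in the lower direction (Gstt1), where 0.491% and 1.72% of all genes did. The TA groups overlapped for all 10 members, while 0.264% of all genes were higher and 1.25% lower without overlap. The TA model held 1 surrogate variable, a covariate estimated from the expression values themselves. With its own test on counts, at the same thresholds, the study called TA genes in both directions. It named Hmox1 among the genes that were higher with D + Q. That test needs counts and was not run on these TPM.

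Srxn1 encodes sulfiredoxin, which restores overoxidised peroxiredoxins. The D + Q libraries held 143, 41.3, 17.2 and 69.8 TPM of Srxn1 and the vehicle libraries 20.8, 17.0, 58.3 and 15.1 TPM. Both groups thus contained low and high libraries, and D + Q replicate 3 lay below 2 of the 4 vehicle libraries. The log2 fold change was 0.60 (SE 0.158, 95% interval 0.25 to 0.95, limma unadjusted p = 0.00336, adjusted p = 0.999). It was 1.11 without the surrogate variable (limma unadjusted p = 0.0939, adjusted p = 0.999) and 0.56 with labelled sex in its place (limma unadjusted p = 0.447, adjusted p = 1.00).

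Hmox1 encodes haem oxygenase 1, which breaks haem into biliverdin, iron and carbon monoxide. Its TPM was 44.8, 9.62, 6.58 and 34.5 in the treated libraries, and 10.5, 10.2, 24.9 and 4.93 in the vehicle libraries. The same 3 libraries that were highest for Srxn1 were highest here, D + Q replicates 1 and 4 and vehicle replicate 3. The log2 fold change was 0.19 (95% interval -0.31 to 0.69, limma adjusted p = 0.999), and 0.70 without the surrogate variable. It ran from 0.0034 without D + Q replicate 4 to 0.36 without vehicle replicate 3.

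Txnrd1, the cytosolic thioredoxin reductase that uses NADPH to recycle thioredoxin, reached 88.4, 41.8, 30.6 and 65.0 TPM in treated muscles against 46.1, 35.9, 68.6 and 25.4 TPM in vehicle muscles. For Nfe2l2 the treated muscles held 67.6, 36.5, 25.0 and 40.5 TPM and the vehicle muscles 34.6, 34.8, 49.8 and 29.4 TPM. Both again peaked in D + Q replicates 1 and 4 and vehicle replicate 3. Their log2 fold changes were 0.05 (95% interval -0.28 to 0.37) for Txnrd1 and -0.10 (95% interval -0.36 to 0.17) for Nfe2l2, and neither sign held under every covariate.

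These 3 libraries, picked after the values had been seen, held the 3 highest of the 8 TA values for 4 of the 10 members (Nfe2l2, Hmox1, Txnrd1 and Srxn1), for 8 of 47 other pathway genes (17.0%) and for 1041 of 16298 genes tested (6.39%). The 8 pathway genes were the small MAF gene Mafk, the NRF2 competitor Bach1, the peroxidase gene Gpx1, the detoxification gene Ugdh, Osgin1, and Atf4, Asns and Slc3a2 of the amino acid response. The surrogate variable was highest in the same libraries, at 0.70 in D + Q replicate 1, 0.30 in vehicle replicate 3 and 0.23 in D + Q replicate 4, against -0.42 to -0.13 in the other 5. The macrophage marker Mrc1 measured 45.0 and 43.1 TPM in D + Q replicates 1 and 4, 32.6 TPM in vehicle replicate 3, and 12.9 to 24.4 TPM elsewhere in TA. The whole macrophage list (6 genes) did not follow this order, with sums of 619, 555 and 534 TPM there, 297 to 703 TPM in the other TA libraries and its highest value in D + Q replicate 2. The 3 libraries were all labelled male, as were all D + Q libraries. The part of sex or of cell makeup in this pattern was not tested.

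**Figure D2:**
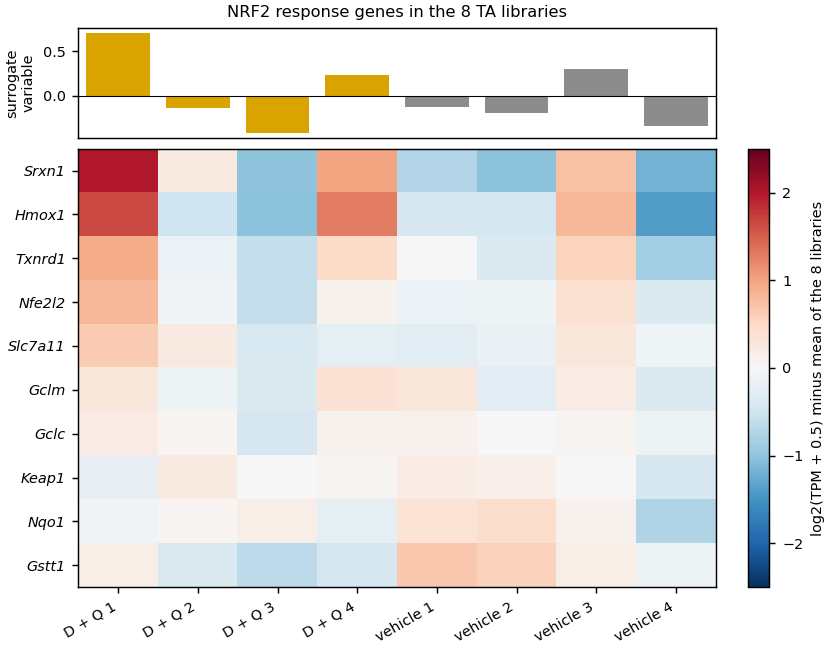
Upper bars show the surrogate variable (no unit) in the 8 TA libraries, and the colours below show log2(TPM + 0.5) of each member minus its mean over these libraries. Srxn1, Hmox1, Txnrd1 and Nfe2l2 are highest in D + Q 1, D + Q 4 and vehicle 3, where the surrogate variable is 0.70, 0.23 and 0.30.

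The glutathione and quinone genes did not share that order in full. For Gclc and Gclm the 3 highest TA libraries were D + Q replicates 1 and 4 and vehicle replicate 1, with vehicle replicate 3 at rank 4. For Nqo1 they were vehicle replicates 1 and 2 and D + Q replicate 3. Gclc and Gclm encode the catalytic and modifier subunits of glutamate cysteine ligase, the first and rate-limiting step of glutathione synthesis. In TA, Gclc ranged from 4.55 to 7.24 TPM with D + Q and from 5.66 to 6.74 TPM with vehicle, and Gclm from 13.0 to 21.7 TPM and from 13.1 to 20.5 TPM. Their log2 fold changes were -0.11 (95% interval -0.46 to 0.23) and -0.04 (95% interval -0.41 to 0.32). Nqo1, a quinone reductase commonly used as a readout of NRF2, ranged from 4.81 to 6.52 TPM with D + Q and from 3.21 to 8.01 TPM with vehicle, a log2 fold change of -0.06 (95% interval -0.65 to 0.53). Keap1 was at 17.5 to 23.7 TPM and 15.2 to 23.0 TPM (log2 fold change 0.06, 95% interval -0.31 to 0.44). Slc7a11, the cystine importer that feeds glutathione synthesis, was low in TA, at 0.337 to 1.20 TPM with D + Q and 0.402 to 0.815 TPM with vehicle, with a log2 fold change of -0.0028 (95% interval -0.52 to 0.51). In the fit with the surrogate variable, a change of 1 on the log2 scale lay outside the intervals of Gclc, Gclm, Nqo1 and Keap1. These intervals take that variable as known, and intervals under other covariates are not given here. For Slc7a11 the added 0.5 was about as large as the TPM itself, so its interval on this scale is too narrow for a ratio of TPM.

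Gstt1, a theta class glutathione transferase, had a value of the opposite sign to Srxn1. The treated muscles held 5.18, 3.45, 2.74 and 3.27 TPM of Gstt1, and the vehicle muscles 7.55, 7.10, 5.13 and 4.17 TPM. D + Q replicates 2, 3 and 4 lay below all vehicle libraries, and replicate 1 lay among them. The log2 fold change was -0.73 (SE 0.223, 95% interval -1.22 to -0.24, limma unadjusted p = 0.00795, adjusted p = 0.999). It was -0.64 without the surrogate variable and -0.73 in the 6 male libraries alone.

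Of 48 other pathway genes listed, 47 were tested in TA, none was called and 1 (Gstm2, lower) met the thresholds before adjustment, with 31 positive and 16 negative log2 fold changes and a median of 0.05. All 8 genes of the regulator list (Mafg, Mafk, Bach1, Cul3 and others) had positive values, from 0.0046 to 0.62, with limma adjusted p-values of 0.999. Over all 16298 genes tested, 5483 values were positive and 10815 negative. The 2 central regulators, held among the members and not in that list, were at -0.10 (Nfe2l2) and 0.06 (Keap1). The 3 pathway genes with the smallest p-values were the mu class transferase Gstm2 (log2 fold change -0.52), the biliverdin reductase Blvrb (-0.39) and the stress response factor Atf4 (0.31), all with limma adjusted p = 0.999. Gstm2 was the only one of the 47 whose groups did not overlap, at 21.4 to 28.3 TPM with D + Q and 28.8 to 48.3 TPM with vehicle. Its highest vehicle values, 48.3 and 40.8 TPM, were those of the 2 females, and the 2 males were at 28.8 and 29.9 TPM.

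The second question was the same in heart. None of the 9 members tested was called, beside 0.105% of 16132 genes called higher and 0.211% called lower. With its own test on counts, at the same thresholds, the study called more heart genes in both directions than were called here. The members' log2 fold changes ran from -0.64 for Gstt1 to 0.06 for Nqo1, with a median of -0.13 beside -0.0025 for all genes tested. Before adjustment, 0 members had p under 0.05 with the minimum fold change in the higher direction and 1 (Gstt1) in the lower one, against 1.30% and 3.79% of all genes. For 2 members, Gstt1 and Nfe2l2, every D + Q value lay below every vehicle value, where 5.57% of all genes were lower and 9.63% higher without overlap. The heart model held labelled sex. By expression all 3 D + Q hearts were female, while the vehicle hearts were 2 male and 2 female, so sex ran in part with treatment.

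Gstt1 was at 7.55, 8.02 and 7.04 TPM in D + Q hearts and at 9.58, 15.2, 10.9 and 12.0 TPM in vehicle hearts. The D + Q values were close together and all below the lowest vehicle value. Mean TPM was 7.54 ± 0.492 (SD, n = 3) in treated hearts, beside 11.9 ± 2.39 (SD, n = 4) in vehicle hearts. The log2 fold change was -0.64 (SE 0.134, 95% interval -0.96 to -0.33, limma unadjusted p = 0.0018, adjusted p = 0.0999), short of the threshold. It was -0.69 without the library whose expression went against its labelled sex and -0.73 in the 5 hearts that were female by expression. The difference of the D + Q effect between TA and heart was 0.01 (95% interval -0.69 to 0.72, limma adjusted p = 1.00).

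**Figure D3:**
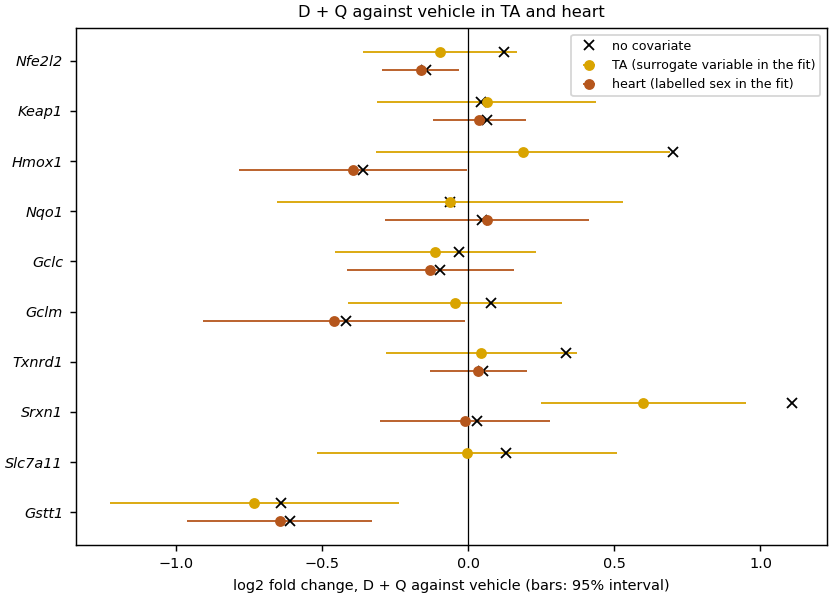
Log2 fold changes of D + Q against vehicle (circles, with 95% intervals as bars) for each member in TA and in heart, with crosses for the fit without a covariate; Slc7a11 was not tested in heart. Gstt1 is at -0.73 in TA and -0.64 in heart, and Srxn1 moves from 0.60 to 1.11 in TA when the surrogate variable is left out.

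The genome holds 4 genes named Gstt, all within a cluster on chromosome 10, and they were examined because of the Gstt1 values. Gstt1 lies at 75618994 to 75634445, Gstt2 at 75666948 to 75673258 and Gstt3 at 75609940 to 75617256 on the minus strand, and Gstt4, between Gstt1 and Gstt2, was listed at 0 in all 15 libraries. Gstt2 was at 5.02, 4.39 and 4.22 TPM in D + Q hearts and at 8.41, 11.0, 7.71 and 7.47 TPM in vehicle hearts. Gstt3 was at 1.48, 1.75 and 1.74 TPM and at 2.43, 3.49, 2.52 and 2.54 TPM. In all 3 expressed genes of the cluster the D + Q hearts lay below the vehicle hearts without overlap. Of all genes tested in heart, 5.57% were lower and 9.63% higher without overlap. Gstt2 and Gstt3 were picked after their values had been seen.

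In heart the log2 fold change was -0.87 for Gstt2 (SE 0.133, limma adjusted p = 0.0623) and -0.60 for Gstt3 (SE 0.148, limma adjusted p = 0.122). Neither was called, although Gstt2 passed the threshold with a filter of at least 1 TPM in every library of 1 group (adjusted p = 0.0456) and without vehicle replicate 3 (adjusted p = 0.0369). In TA, where the groups overlapped for both, Gstt2 was at 0.02 and Gstt3 at -0.42 (limma adjusted p = 0.999). Reads shared between related genes are divided by estimation when transcripts are quantified, so the 3 values are not fully independent measurements. In vehicle hearts, Gstt1 was highest in replicate 2, which also had the highest atrial and red cell sums (1305 and 1067 TPM), and lowest in replicate 1, which had the lowest atrial sum (174 TPM) and a red cell sum of 492 TPM, above those of replicates 3 and 4 (310 and 285 TPM). The atrial, red cell, fibroblast and cardiomyocyte sums and Bmal1 also separated the heart groups without overlap, and their part in the Gstt values was not tested.

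**Figure D4:**
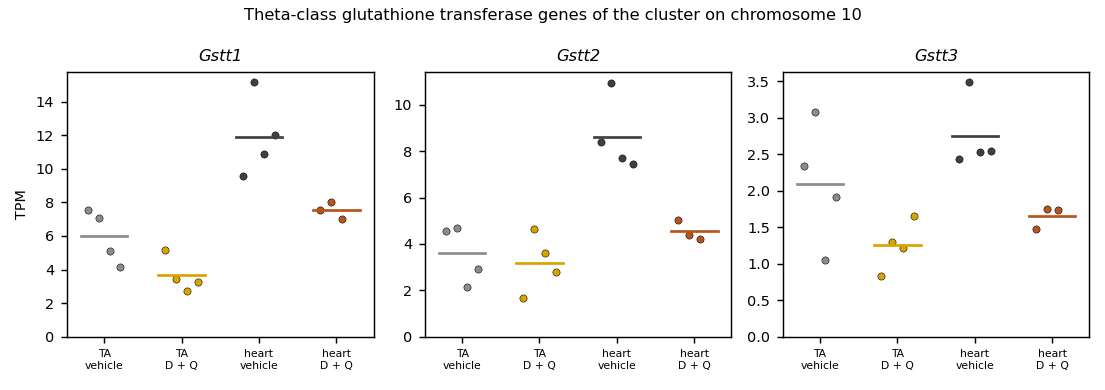
TPM (linear axis from 0) of Gstt1, Gstt2 and Gstt3 in each library, with lines for group means. In heart all D + Q points lie below all vehicle points for the 3 genes, and in TA the groups overlap.

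The remaining members showed smaller differences in heart. Nfe2l2 held 27.8, 28.2 and 24.9 TPM in treated hearts, and 28.9, 30.6, 30.5 and 29.3 TPM in vehicle hearts, a log2 fold change of -0.16 (SE 0.055, limma adjusted p = 0.197). The gap between the groups was narrow, since the highest D + Q value and the lowest vehicle value differed by under 1 TPM. Hmox1 was at 7.68, 8.28 and 5.43 TPM and at 10.5, 10.7, 7.85 and 7.89 TPM, with log2 fold change -0.39 (95% interval -0.78 to -0.0031, limma adjusted p = 0.28). The red cell marker sum, which comes with haem, was also lower in every D + Q heart, and its part was not tested. Gclm was at 15.1, 12.5 and 7.73 TPM and at 16.1, 16.5, 13.3 and 15.6 TPM, with log2 fold change -0.46 (limma adjusted p = 0.272). For Gclm and Hmox1 the lowest value was that of D + Q replicate 3, the library at odds with its labelled sex, and without it the values were -0.10 and -0.19. Other alternatives included sex read from expression. Across them Gclm lay at -0.48 to -0.37, Hmox1 at -0.43 to -0.36 and Nfe2l2 at -0.18 to -0.14.

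The other 6 members had smaller log2 fold changes in heart. Txnrd1 ranged from 18.0 to 21.0 TPM with D + Q and from 17.3 to 19.5 TPM with vehicle (log2 fold change 0.03, 95% interval -0.13 to 0.20), and Srxn1 from 8.47 to 11.2 TPM and from 7.78 to 11.0 TPM (-0.0097, 95% interval -0.30 to 0.28). The wide spread of both genes between TA libraries was not seen in heart, where the highest library exceeded the lowest of its group by at most 1.41-fold for Srxn1, beside 8.30-fold in D + Q-treated TA. Keap1, Nqo1 and Gclc had log2 fold changes of 0.04, 0.06 and -0.13, with limma adjusted p-values from 0.627 to 0.858. Without D + Q replicate 3, Nqo1 was at 0.37 and Gclc at 0.012, and neither was called. Slc7a11 was at or under 0.222 TPM in every heart and was not tested with limma. Its mean log2(TPM + 0.5) differed by -0.10 (exact permutation test, two-sided, p = 0.514).

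Of the 48 other pathway genes none was called in heart, and 1 (Ephx1, lower) met the thresholds before adjustment, with 21 positive and 27 negative log2 fold changes and a median of -0.03. The smallest p-values belonged to the epoxide hydrolase Ephx1 (log2 fold change -0.55, limma adjusted p = 0.0986), the stress factor Ddit3 (-0.44, adjusted p = 0.108) and Idh1, a source of cytosolic NADPH (-0.31, adjusted p = 0.126). Ephx1 held 18.7, 20.0 and 17.5 TPM in treated hearts, and 25.0, 33.8, 24.2 and 26.4 TPM in vehicle hearts. Like Gstt1 it had its highest value in vehicle replicate 2. Without vehicle replicate 3 it was called lower (log2 fold change -0.67, limma adjusted p = 0.0391). Groups did not overlap for 5 pathway genes that were lower (Ephx1, Idh1, Mgst1, Tkt and Mafk) and 3 that were higher (Me1, Gstp1 and Chac1), beside 5.57% and 9.63% of all genes.

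No member was called for a difference between TA and heart in its D + Q effect, and 0 met the thresholds before adjustment. In the interaction fit over all 15 libraries, 0.0560% of 17868 genes were called with a more positive effect in TA and 0.00560% with a more negative one, and the members' values ran from -0.25 for Nqo1 to 0.91 for Srxn1 (limma adjusted p-values of all 10 members 1.00). The interval for Srxn1, -0.86 to 2.67, was wide, and so was that for Hmox1, -0.97 to 2.70 around 0.87. These intervals do not separate a large difference from none.

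The levels of several members differed between the tissues. Between vehicle TA and vehicle heart, 3 of the 9 members tested were called higher in TA and 2 called lower, where 24.0% and 14.7% of 16893 genes were called in those directions. Nqo1 had the largest absolute log2 fold change of the 9. It was at 7.52, 8.01, 6.25 and 3.21 TPM in vehicle TA and at 31.2, 23.9, 23.1 and 31.5 TPM in vehicle heart, a log2 fold change of -2.10 (SE 0.244, limma adjusted p = 4.39e-05). Gstt1 was also lower in TA, with log2 fold change -0.95 (SE 0.202, limma adjusted p = 0.00289).

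Txnrd1 and Srxn1 were higher in TA. Txnrd1 was at 25.4 to 68.6 TPM in vehicle TA and 17.3 to 19.5 TPM in vehicle heart (log2 fold change 1.13, SE 0.242, limma adjusted p = 0.003). Srxn1 was at 15.1 to 58.3 TPM and 7.78 to 11.0 TPM (log2 fold change 1.29, SE 0.353, limma adjusted p = 0.0122, and 0.86 without vehicle TA replicate 3). Keap1, the inhibitor, was also higher in TA, at 15.2 to 23.0 TPM against 11.8 to 14.0 TPM (log2 fold change 0.62, SE 0.143, limma adjusted p = 0.00481). The median gene was 0.16 higher in TA, and after median-of-ratios scaling, which brought that median to 0.00036, Keap1 was at 0.44, under the minimum fold change. The same scaling moved the genes called over the whole table from 4056 higher and 2484 lower to 2929 and 3288.

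Slc7a11 was at 0.402 to 0.815 TPM in vehicle TA and 0.0636 to 0.222 TPM in vehicle heart. The groups did not overlap, and mean log2(TPM + 0.5) differed by 0.77 (two-sided exact permutation test, p = 0.0286, which is as small as 4 against 4 allows). Nfe2l2, Hmox1, Gclc and Gclm were not called, with log2 fold changes of 0.29, 0.23, 0.18 and 0.09 and limma adjusted p-values from 0.143 to 0.68.

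**Figure D5:**
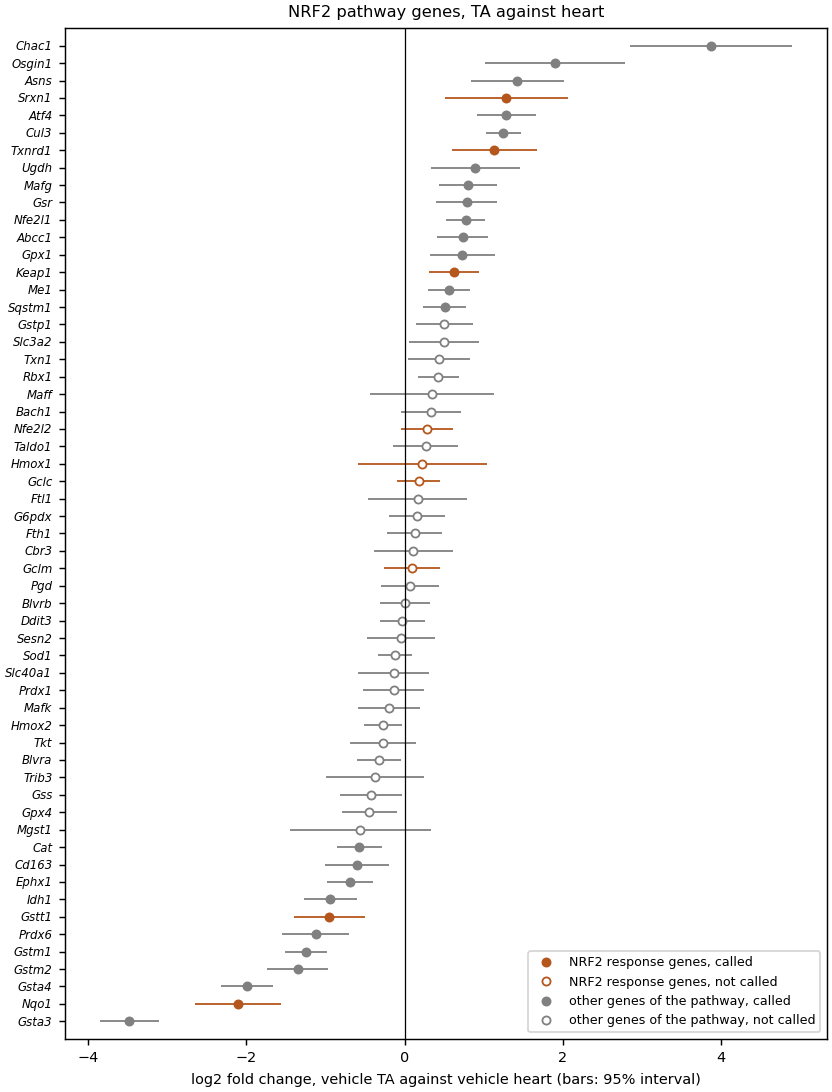
Log2 fold changes of vehicle TA against vehicle heart with 95% intervals for the 9 members tested (brown) and 48 other pathway genes (grey), ordered by value, with filled circles for called genes. Nqo1 (-2.10) and Gstt1 (-0.95) lie at the lower end with Gsta3, Gsta4, Gstm1, Gstm2, Prdx6 and Idh1. Srxn1 (1.29) and Txnrd1 (1.13) lie at the upper end with Chac1, Osgin1, Asns, Atf4 and Cul3.

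Of the 48 other pathway genes, 13 were called higher and 9 lower in vehicle TA. These counts stand beside the 24.0% and 14.7% of all genes called in those directions. In the glutathione list of 11 genes, 3 were called higher and 4 lower. Gsta3, Gsta4 and Gstm1 are glutathione transferases of that list. Gsta3 was at 0.0418 to 0.19 TPM in vehicle TA and 5.17 to 7.77 TPM in vehicle heart (log2 fold change -3.48, limma adjusted p = 4.09e-08), Gsta4 at 7.94 to 13.4 TPM and 39.1 to 43.8 TPM (-1.99), and Gstm1 at 67.4 to 90.0 TPM and 175 to 215 TPM (-1.25). The transferase Gstp1 had a positive value just under the minimum fold change (0.499, limma adjusted p = 0.0283). Neither Gstp1 nor Mgst1 (-0.56, limma adjusted p = 0.29) was called. Of the 5 with the smallest adjusted p-values, those higher in TA were Cul3, the scaffold of the ligase that destroys NRF2, at 152 to 173 TPM against 63.3 to 76.9 TPM (1.25), and Chac1, a glutathione-degrading enzyme of the ATF4 response, at 10.2 to 75.8 TPM against 1.20 to 1.98 TPM (3.87). In the thioredoxin list of 5 genes, 0 were called higher and 2 lower (Prdx6 and Cat). The other genes of that list, Txn1 (0.44, limma adjusted p = 0.0646), Prdx1 (-0.14) and Sod1 (-0.12), were not called.

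Between D + Q-treated TA and D + Q-treated heart, 3 members were called higher in TA (Keap1, Txnrd1 and Srxn1) and 2 lower (Nqo1 and Gstt1), beside 21.2% and 15.6% of 16381 genes. The log2 fold changes were 0.60, 1.42 and 2.36 for the 3 higher genes and -2.21 and -0.98 for the 2 lower ones, with limma adjusted p-values from 7.14e-06 to 0.0133. After median-of-ratios scaling Keap1 was at 0.49, under the minimum fold change, and without D + Q TA replicate 3 Nfe2l2, Hmox1 and Gclm were called higher as well. Slc7a11 did not overlap between the tissues in the treated mice either, with a difference of 1.00 in mean log2(TPM + 0.5) (exact permutation test, two-sided, p = 0.0571). The treated TA libraries were all male, and the treated hearts were labelled 2 female and 1 male but were all female by expression. Sex by expression and tissue therefore cannot be told apart in this comparison.

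Genes whose deviations from group means were most like each member's over the 15 libraries, among 14914 genes, were listed as a description only. These points share library and tissue composition. Nfe2l2 was followed most closely by Jak1 (r = 0.98), Cd14 and Arid5a, Hmox1 by Ccl12 (r = 0.98), Sh3bp2 and Arf6, Txnrd1 by Ier3 (r = 0.98), Tgif1 and Ccl2, and Srxn1 by Bcl3 (r = 0.97) and Sphk1. The nearest genes of the others were Anapc2 for Keap1 (r = 0.97), Zxdb for Nqo1 (r = 0.95), Rnf149 for Gclc (r = 0.95), Zc3h10 for Gclm (r = 0.93) and Cyb5r3 for Gstt1 (r = 0.94). No other member appeared among the 3 genes nearest to any member.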

How the data were processed

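Bulk RNA-seq of 15 libraries was analysed. Per the labels and methods, the authors trimmed reads with Trim Galore 0.6.10, quantified them with Salmon 1.10.3 against GRCm39, summarised genes with tximport and deposited TPM. The study's own test needs counts. TPM are not counts, so limma 3.58.1 (R 4.3.3, lmFit, eBayes with trend) was run on log2(TPM + 0.5) for genes at 0.5 TPM or more in at least 3 of the libraries fitted. TA fits held 1 surrogate variable (5 rounds), heart and interaction fits labelled sex, and tissue fits no covariate. Slc7a11, removed by the filter in some fits, was compared with exact permutation tests. Symbols came from GENCODE M39 (56236 of 56980 identifiers matched). Where a symbol had several identifiers, the one with the highest mean TPM was used. Motifs were searched in GRCm39 around canonical starts. The code was tested on simulated data.

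The 10 members, the 48 other pathway genes and the marker lists were chosen with earlier results of these data known. Named pathway genes were the 3 with the smallest p-values in a D + Q comparison where none was called, and the 5 with the smallest adjusted p-values between vehicle tissues. For each member tested in both tissues, the 3 most correlated genes were found, and 1 of them is not reported here. Gstt2, Gstt3, Gstt4, the 3 TA libraries and genes named for overlap or for their list were chosen after their values were seen. The labels number samples, not animals, so p-values measure the spread between these samples. Alternatives were other pseudocounts, filters, scaling and covariates, the replicate block, and leaving out each library; single-sex fits were added after seeing the data. No 2 libraries were identical (within-group r 0.949 to 0.982). Several members overlap other annotated genes, such as Gclm with the pseudogene Gm6061 and Txnrd1 with Eid3, and strand use in quantification is not given in the sources used here. Fisher, enrichment and count tests were not used.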

Additional observations from a re-analysis of the deposited data

Results flagged for a closer look

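Of 30 sets of 4 libraries examined (10 members in 3 groups), 1 held a library far from the others. Srxn1 in vehicle TA replicate 3 was at 58.3 TPM, while the other 3 vehicle TA libraries lay at 15.1 to 20.8 TPM. A gap of this size arises by chance in about 1 in 20 such sets. The same library was also the highest of the vehicle TA group for Nfe2l2, Hmox1, Txnrd1 and Slc7a11.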

How the results depend on the processing

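Across the alternatives run, 0 members were called between D + Q and vehicle in either tissue or in the interaction. Gstt1 kept its sign, at -0.79 to -0.64 in TA and -0.73 to -0.60 in heart, and at -0.91 to -0.61 and -0.75 to -0.52 with 1 library left out. Srxn1 in TA lay at 0.56 to 1.11, and at 0.48 to 0.82 with 1 library left out. Signs that turned in TA were all of small log2 values. They were Slc7a11 (0.00160 with a pseudocount of 1, 0.13 with no covariate or the replicate block, 0.063 with sex or males only), Gclm (0.011 with median-of-ratios scaling, 0.078 with no covariate or the block), Nqo1 (0.031 with scaling), Nfe2l2 (0.12 with no covariate or the block), Keap1 (-0.070) and Txnrd1 (-0.11) with sex or males only, and Gstt2 (-0.00128 with a pseudocount of 0.1, -0.17 with no covariate or the block, -0.064 with sex or males only). In heart, Srxn1 turned to 0.0028 with scaling and 0.032 with no covariate, and Keap1 to -0.023 with sex read from expression or females only. Between vehicle tissues Gclm turned to -0.086 with scaling, and Keap1 lost its call. Slc7a11 between treated tissues reached p = 0.0286 (exact permutation test) with a pseudocount of 0.1 or scaling. The causes were not tested.

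With 1 library left out, log2 values in TA ran from -0.053 to 0.13 for Keap1, -0.29 to 0.063 for Nqo1, -0.18 to 0.025 for Gclc, -0.12 to 0.067 for Gclm, -0.052 to 0.18 for Txnrd1, -0.14 to 0.11 for Slc7a11 and -0.13 to 0.26 for Gstt2. In heart they ran from -0.024 to 0.37 for Nqo1, -0.24 to 0.012 for Gclc, -0.010 to 0.070 for Txnrd1 and -0.15 to 0.12 for Srxn1, and between vehicle tissues from -0.17 to 0.58 for Hmox1 and -0.016 to 0.20 for Gclm. Members called higher between treated tissues ran from 3 to 6, with 6 without TA D + Q replicate 3, and were 2 with scaling (Keap1 lost) and 4 with no filter, which let Slc7a11 be tested. Genes called in heart, 17 higher and 34 lower, fell to 0 and 0 without the filter, 11 higher with scaling, 3 and 22 with sex read from expression, 3 and 13 in females and 0 and 4 with the replicate block, and ran from 0 and 0 without vehicle replicate 2 to 64 and 72 without vehicle replicate 3. Interaction calls, 10 and 1, moved to 5 higher without the filter, 2 lower with the stricter filter or scaling and 3 lower with no covariate. Replicate numbers did not pair the libraries (mean correlation of deviations -0.11 for the same number and 0.04 for different numbers in TA), and the block changed no member's call. TPM keeps no depth, so the counting error of low genes such as Slc7a11 is unknown.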
